A study of Mus musculus with 126 samples.

Results

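Cytosolic ribosomal protein genes encode the proteins of the small (Rps) and large (Rpl, Rplp) subunit of the ribosome. The members were taken by symbol, as Rpl or Rps followed by a number and at most 1 of the letters a, x or l, together with Rplp0, Rplp1, Rplp2 and Rpsa. Of 24883 rows in each table, 81 matched these symbols and 78 had a mean of at least 1 FPKM (fragments scaled to transcript length and to the library's mapped total) in at least 1 of the 7 conditions. The 78 members comprised 46 genes of the large and 32 of the small subunit, and all 78 entered the tests. Symbols of another form, such as Rps3a1 or Rpl22l1, lay outside the rule.

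RNA came from mouse colon: 126 libraries from 7 conditions, 3 per condition and time point at ZT0, ZT4, ZT8, ZT12, ZT16 and ZT20, where zeitgeber time 0 (ZT0) is lights on. Wild-type mice, mice with a gut-specific Bmal1 knock out and mice with a gut-specific knock out of the mineralocorticoid receptor (MR) ate normal chow at will. The knock outs were 8 to 12 weeks old, while the sources used here state no age for wild type and do not name the driver of the gut-specific deletions. The 4 feeding groups were male C57BL/6 mice of 8 weeks, kept in 12 h light and 12 h dark, which received low- or high-salt food only at night or only by day. Nothing in the labels ties each library to its own animal, so p-values measure the spread between these samples, which may be technical.

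A ribosome is built from ribosomal RNA and one copy of nearly every ribosomal protein, so cells make these proteins in balanced amounts. Most of their mRNAs begin with a cytosine followed by an unbroken run of pyrimidines, the 5′ terminal oligopyrimidine (TOP) motif, through which mTOR complex 1 and LARP1 couple their translation to nutrients and growth signals. Feeding and the circadian clock are both known to act on ribosome production in the gut and liver, in part through translation, which RNA levels do not show. The mRNAs are short, abundant and stable.

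The promoter table of RefSeq (build GRCm38.p6) held 57 of the 78 members. The windows below show the 50 bases before and the first 20 bases from the annotated start of the 4 members that stood furthest above, and the 4 that stood furthest below, the other members in the Bmal1 knock out. They are given 5′ to 3′ on the gene's strand, with the longest unbroken run of C and T in capitals.
Rpl41: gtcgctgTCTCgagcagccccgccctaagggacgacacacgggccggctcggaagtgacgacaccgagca
Rps24: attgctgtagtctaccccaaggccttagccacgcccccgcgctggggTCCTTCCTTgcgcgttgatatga
Rps19: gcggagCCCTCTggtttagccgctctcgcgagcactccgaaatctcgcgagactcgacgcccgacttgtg
Rps15: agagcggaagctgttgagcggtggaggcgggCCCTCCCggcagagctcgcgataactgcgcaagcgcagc
Rps3: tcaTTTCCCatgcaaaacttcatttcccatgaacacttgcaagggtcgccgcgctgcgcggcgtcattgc
Rpl10: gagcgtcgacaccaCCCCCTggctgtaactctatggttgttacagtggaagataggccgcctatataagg
Rpl7a: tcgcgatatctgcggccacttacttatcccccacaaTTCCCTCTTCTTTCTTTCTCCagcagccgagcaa
Rpl34: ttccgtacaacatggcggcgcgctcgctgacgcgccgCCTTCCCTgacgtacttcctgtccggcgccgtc

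The windows lie at chr10:128549149-128549218 (minus strand) for Rpl41, chr14:24490628-24490697 (plus) for Rps24, chr7:24884542-24884611 (plus) for Rps19 and chr10:80292381-80292450 (plus) for Rps15. Those of the lower group lie at chr7:99483690-99483759 (minus) for Rps3, chrX:74270766-74270835 (plus) for Rpl10, chr2:26910757-26910826 (plus) for Rpl7a and chr3:130730379-130730448 (minus) for Rpl34. The longest run was 21 bases in Rpl7a and 9 bases in Rps24, and both ran across the annotated start. It was 4 bases in Rpl41 and 6 bases in Rps19, Rps3 and Rpl10, away from the start. Both groups thus held members with and without a long pyrimidine run at the annotated start, and annotated starts can lie off the start used in colon.

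Over the 100 bases around the start, 46 of the 57 members (80.7%) held a run of at least 8 C or T on the gene's strand, against 35.7% of all 27025 promoters in the table. The letters CTTTCC stood in the same 100 bases and strand in 15 members (26.3%) and in 4.67% of all promoters. In the full 300-base windows, on both strands, the ETS-type core CCGGAAG stood in 23 members (40.4%, all promoters 9.14%) and the YY1-type GCCATNTT in 11 (19.3%, all promoters 6.20%). The cAMP-response palindrome TGACGTCA stood in 5 members (8.77%, all promoters 1.85%). The E-box CACGTG, the letters that BMAL1 and CLOCK bind, also stood in 5 members (8.77%), beside 7.24% of all promoters. These are matches of letters, which can overlap one another, and not sites of binding.

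Levels between genes are compared in deposited FPKM, which is per length. Rpl41, which encodes a very short peptide of the large subunit, had the highest mean over all 126 libraries, with 3121 ± 1055 FPKM in wild type (SD, n = 18). In that order Rps29, a zinc-binding small-subunit protein, followed with 2629 ± 210 FPKM, Rps12 with 1927 ± 365 FPKM and Rps15 with 1820 ± 415 FPKM in wild type. Within wild type the order was not the same: Rps28 (1989 ± 159 FPKM) stood above Rps12, and Rplp2 (1908 ± 270 FPKM) above Rps15. The ranges of these first 4 genes overlapped in wild type, where Rps12 and Rps15 did not differ beyond their spread. Over all libraries Rpl41, Rps29, Rps12 and Rps15 made up 14.5% of the summed mean FPKM of the members.

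The lowest members were Rps27 with 6.34 ± 8.61 FPKM in wild type, Rps4l with 26.7 ± 6.16 FPKM, Rpl30 with 41.4 ± 5.44 FPKM and Rps15a with 53.4 ± 6.18 FPKM (SD, n = 18). Rps4l is annotated as a transcribed processed pseudogene in GENCODE vM21, and the other 77 members as protein coding. Processed pseudogenes of ribosomal proteins are near-identical copies, so how the deposited values split shared reads between a gene and its copies bears on each low member. Rps27 fell into separate ranges: 98 libraries held 0.512 to 6.47 FPKM and 28 held 23.3 to 107 FPKM. The upper range held 2 wild-type, 3 Bmal1 knock out, 5 MR knock out, 4 low salt night fed, 4 low salt day fed, 7 high salt night fed and 3 high salt day fed libraries, so it belonged to no single condition.

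Paralogs of restricted expression were near 0. Rpl10l was at 0 FPKM in all 18 libraries of every condition. Rpl39l reached at most 0.132 FPKM and Rpl3l, the muscle paralog of Rpl3, at most 0.211 FPKM. Rps27l, a p53-responsive paralog of Rps27, held 222 ± 25.1 FPKM in wild type (SD, n = 18), above every library's value of Rps27 in that condition.

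Together the 78 members held a large share of each library. Their share of the summed FPKM ran from 13.1% to 22.6% in wild type (median 15.9%), from 13.7% to 26.6% in Bmal1 knock out (median 23.6%) and from 10.8% to 18.4% in MR knock out (median 15.9%). In night fed mice the median was 20.0% on low salt and 23.5% on high salt. In day fed mice it was 20.8% on low salt and 20.8% on high salt. The Bmal1 knock out was split by time. Its libraries held 13.9% to 16.1% at ZT4, inside the wild-type range, and 22.4% to 26.6% at ZT12, ZT16 and ZT20, as the plot of shares shows.

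**Figure D1:**
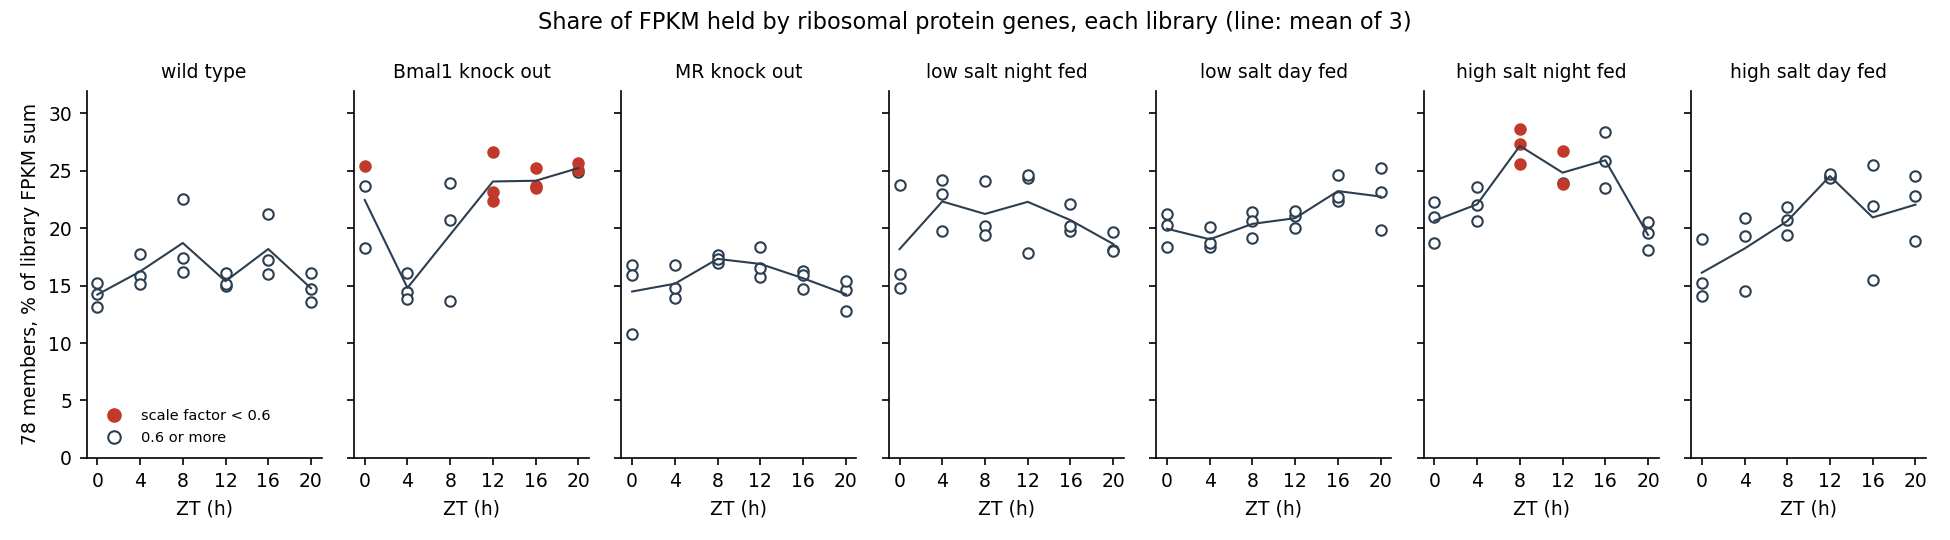
Share of each library's FPKM sum held by the 78 members (percent, vertical axis) against zeitgeber time (hours), for the 7 conditions. Circles are libraries, filled red where the scale factor was under 0.6, and lines join means of 3; the 9 filled circles of the Bmal1 knock out lie at 22.4% or more.

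Libraries differed in scale, which bears on every level below. A scale factor per library (the median ratio over 6966 rows expressed in all libraries) ran from 0.297 to 1.48, and 14 libraries lay under 0.6: 9 of Bmal1 knock out (1 at ZT0, 3 at ZT12, 3 at ZT16, 2 at ZT20) and 5 of high salt night fed (3 at ZT8, 2 at ZT12). A length score per library, the slope of the other tested genes' log2 deviations on log2 transcript length, measured whether short or long transcripts were high. Its median was 0.182 for wild type, -0.154 for Bmal1 knock out, and -0.171 in the 14 libraries against 0.0278 in the other 112, where a negative score means that short transcripts were relatively high. In the 14 libraries the members held 22.4% to 28.6% of FPKM, in the other 112 from 10.8% to 28.4%. Read depth is not printed, since FPKM hold no counts and the lowest FPKM steps gave it only coarsely. Colon epithelium markers (9 genes) summed to at least 5466 rescaled FPKM in every library and smooth muscle markers (6 genes) to at most 4.69. Wild-type libraries held 2.25 to 19.2 rescaled FPKM of Arntl (Bmal1) and Bmal1 knock out libraries 2.87 to 6.28, which overlapped. For Nr3c2 (MR) the wild type held 7.05 to 23.2 and the MR knock out 1.66 to 5.33, without overlap. Nr3c2 was low in the Bmal1 knock out too, at 3.22 to 13.9 with a median of 4.80 beside 14.9 in wild type. In bulk tissue fewer cells of a type and less RNA per cell cannot be told apart.

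Is the level of ribosomal protein mRNAs different without Bmal1? On the rescaled scale, FPKM divided by the scale factor, 73 of 78 members were higher in Bmal1 knock out than in wild type and none was lower (limma, Benjamini-Hochberg adjusted p under 0.05 over 11377 rows). Of all rows 31.1% were called higher and 49.2% lower (80.3% in either direction). Rows annotated as ribosomal RNA held a median of 0.254% of the FPKM sum in the Bmal1 knock out and 0.0387% in wild type, and 0.342% in the 14 low-scale libraries against 0.0299% in the other 112. Their part in the result was not tested. The members' median log2 difference was 0.60, that of all rows -0.13. Of the large subunit 44 of 46 and of the small subunit 29 of 32 were called higher. Rpl10, Rpl34, Rps3, Rps27 and Rps4l were the 5 that did not pass.

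Rpl41 held 1675, 2392 and 8170 rescaled FPKM in wild type (lowest, median and highest of 18) and 2339, 12056 and 16313 in Bmal1 knock out. Most knock out libraries were above the wild-type range, with overlap at its lower end. Its log2 difference was 1.74 ± 0.19 (SE, limma adjusted p = 3.57e-10). Rps24, a small-subunit protein that is mutated in some Diamond-Blackfan anaemias, went from 705 (488 to 1768) to 2412 (674 to 3031), a log2 difference of 1.31 ± 0.14 (limma adjusted p = 2.14e-10). Rps19, the gene most often mutated in that anaemia, went from 524 (370 to 1462) to 1860 (454 to 2261), a log2 difference of 1.29 ± 0.16. Rps15 went from 1436 (1031 to 3790) to 5051 (1140 to 7086), a log2 difference of 1.26 ± 0.16. In each of these genes the 2 groups overlapped.

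The members that form the stalk of the large subunit, which recruits elongation factors, rose by unequal amounts. Rplp1 differed by 1.20 ± 0.14 and Rplp2 by 1.08 ± 0.13 in log2, while Rplp0, which anchors them, differed by 0.27 ± 0.07. Rpsa, which also serves as a laminin receptor, differed by 1.10 ± 0.14. Rps6, the substrate of S6 kinase, differed by 0.47 ± 0.08. Rpl5 and Rpl11, which bind MDM2 outside the ribosome, differed by 0.65 ± 0.12 and 0.44 ± 0.09. All of these passed the test.

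On the deposited scale the direction turned. In FPKM as deposited 11 members were higher and 45 lower in Bmal1 knock out, with a median log2 difference of -0.30. Of all rows 3.42% were then higher and 87.8% lower, with a median of -0.89. Rpl41 stayed higher, by 0.83 (limma adjusted p = 2.11e-07), and Rplp0 was lower, by -0.63 (limma adjusted p = 1.82e-07). On both scales the members lay above the median of all rows. The direction of their level depended on the scale.

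Transcript length moved with this difference. The members' transcripts had a median length of 830 nucleotides, against 2755 over 11101 other tested genes. In Bmal1 knock out minus wild type the other genes of up to 600 nucleotides had a median log2 difference of 0.44, those over 1000 and up to 2000 nucleotides 0.15, and those over 4000 nucleotides -0.47. The members lay at 0.56 (21 members), 0.60 (33 members, up to 1000 nucleotides) and 0.62 (20 members, up to 2000 nucleotides) in the first, next and middle class, as the plot by length class shows. Among the 78 members themselves length and difference had a Spearman rho of -0.02, across genes that share the same libraries. The lengths are those of annotated transcripts, which may differ from the transcripts made in colon. They put Rps20 at 3706 and Rps15a at 5154.5 nucleotides. The rho and the members' length classes rest on these lengths, so they do not show that the difference was free of length. With the length score as a covariate 14 members were higher and 13 lower (all rows 18.8% and 18.1%), with a median of -0.01. Genotype and score moved together, and the part of each in the difference was not tested further.

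**Figure D2:**
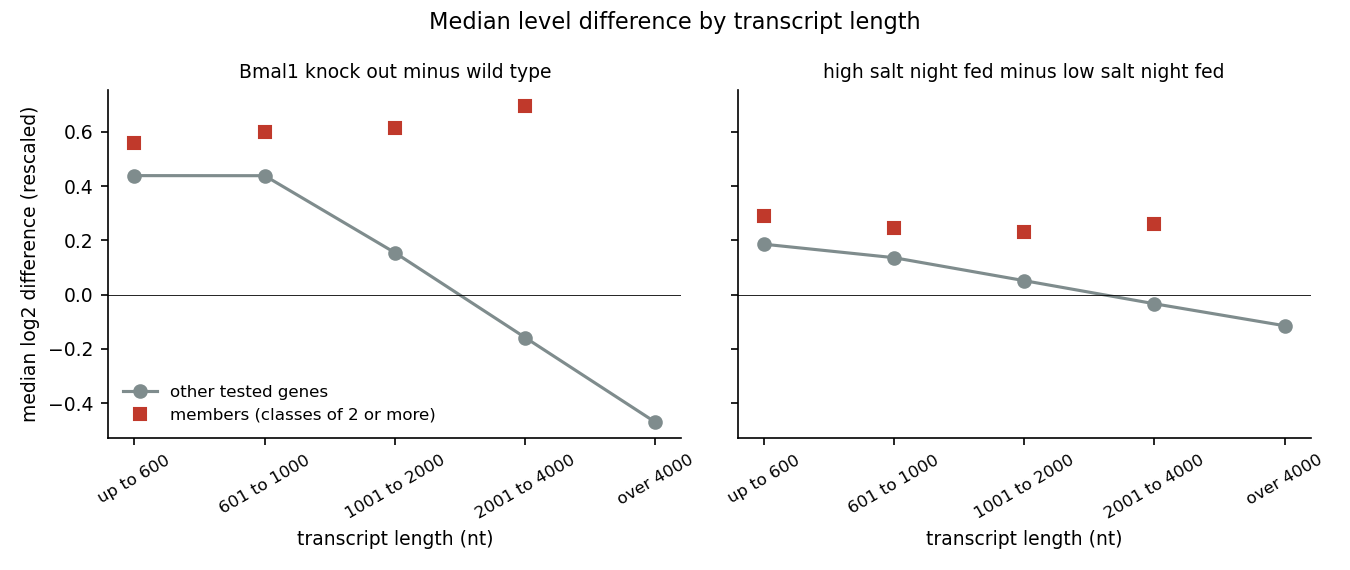
Median log2 difference (rescaled FPKM, vertical axis) by transcript length class (nucleotides), for Bmal1 knock out minus wild type and for high salt minus low salt in night fed mice. Grey points are the other tested genes and red squares the members, in classes with 2 or more of them; in the left panel the members lie at 0.56 to 0.69 while the other genes run from 0.44 down to -0.47.

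The genotype difference was not alike at all times. The median member difference, rescaled, was 0.99 at ZT0, -0.01 at ZT4, 0.20 at ZT8, 0.74 at ZT12, 0.54 at ZT16 and 1.17 at ZT20. At ZT4, where the 3 knock out libraries had scale factors of 1.26, 1.39 and 1.39, 38 members were higher and 40 lower. At that time the 3 knock out libraries stood above all 3 wild-type libraries in 4 members and below them in 1 (all rows 16.3% and 20.9%). At ZT20 they stood above in 72 members and below in none (all rows 28.5% and 48.0%), and at ZT0 above in 68 and below in none (all rows 22.0% and 34.0%). At ZT8 the knock out libraries of length score -0.215 and -0.202 held shares of 23.9% and 20.7%, and the one of length score 0.187 held 13.7%. Leaving out the libraries of scale factor under 0.6 leaves no knock out library at ZT12 and ZT16, so every fit without them, here and below, also used a cosine and a sine in place of a mean per time. That fit called 74 members higher (all rows 25.3% higher and 41.8% lower), and the same terms with all libraries 73.

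**Figure D3:**
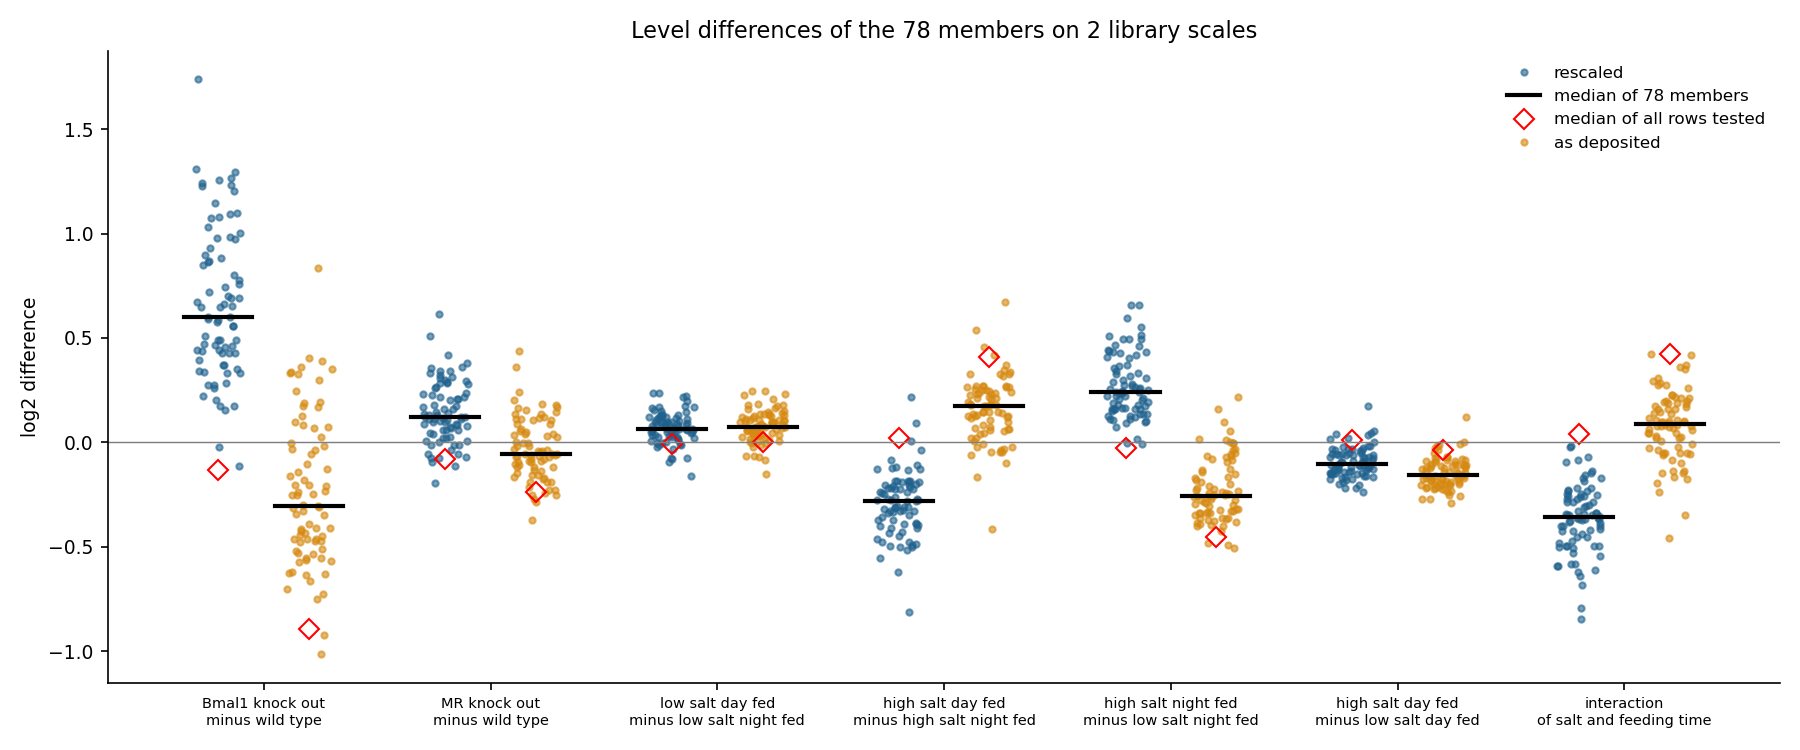
Log2 difference of each member (vertical axis) in the 6 level comparisons and in the interaction of salt and feeding time, from rescaled FPKM (blue) and FPKM as deposited (orange). Black bars are medians over the 78 members and red diamonds medians over all 11377 tested rows; for Bmal1 knock out the member median is 0.60 rescaled and -0.30 as deposited.

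A measure that hardly depends on a library's scale is each member against the median of all members in the same library. On this relative scale 35 members were higher and 30 lower in Bmal1 knock out (all rows 9.04% and 76%), with a range of -0.70 to 1.15 in log2. Since libraries are centred on the members' own median, about as many members lie above as below by construction. This holds for every relative comparison below, so the split into higher and lower is no result in itself. The shares of all rows are set against that same median. Rpl41 led at 1.15 ± 0.10, then Rps24 at 0.72 ± 0.05, Rps19 at 0.71 ± 0.07 and Rps15 at 0.68 ± 0.08. Rps3, a small-subunit protein at the mRNA entry channel, was lowest at -0.70 ± 0.07. Rpl10, which completes the late large subunit, followed at -0.61 ± 0.05, Rpl7a at -0.43 ± 0.09 and Rpl34 at -0.41 ± 0.05. The members of both groups are those whose start windows are printed above.

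In shares of the summed member FPKM, Rpl41 took 3.58%, 3.97% and 6.72% in wild type (lowest, median, highest of 18) and 4.29%, 8.41% and 11.9% in Bmal1 knock out. Rps3 took 0.331%, 0.523% and 0.574% in wild type and 0.167%, 0.237% and 0.504% in the knock out. Rpl10 took 1.47%, 1.91% and 1.99% against 0.697%, 0.969% and 1.88%. The median share of Rpl41 was thus higher in the knock out and those of Rps3 and Rpl10 lower, with overlap between the groups in all 3 genes. Libraries of 1 genotype differed likewise. At ZT8 Rpl41 lay 1.51, 1.79 and 2.48 above the member median (log2) in wild type, at length scores of 0.270, 0.163 and -0.161. In the knock out it lay at 2.64, 1.76 and 2.73, at length scores of -0.215, 0.187 and -0.202. The part of genotype and of length score in these shares was not tested.

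At ZT4 alone, 17 of the 35 members called higher over the day were higher on the relative scale (median -0.02), and 18 of the 30 called lower were lower (median -0.04). Single members still differed at ZT4: the 3 knock out libraries stood above all 3 wild-type libraries in 16 members and below them in 22 (all rows 10.4% and 11.8%). Rpl26 stood 0.67 higher and Rpl30 0.56 higher without overlap. The largest difference was a fall, that of the pseudogene Rps4l, by -1.27 without overlap. Rps15, among the highest over the day, was lower at ZT4 without overlap, by -0.27. Rpl41 lay at 1.79, 1.68 and 1.54 above the member median (log2) in the 3 wild-type libraries at ZT4 and at 1.77, 1.82 and 1.89 in the knock out, which overlapped. Rps3 lay at -1.31, -1.26 and -1.15 in wild type and at -1.39, -1.30 and -1.44 in the knock out, which also overlapped. Without the low-scale libraries 53 relative calls were made (all rows 83.2%). A fit holding the length score made 34 (all rows 47.8%). With both, a choice made after seeing the data, 6 were made (all rows 4.87%). Rpl41 was then 0.28 higher (limma adjusted p = 0.0693) and Rps24 0.26 higher (limma adjusted p = 0.0078).

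Fewer members passed in the MR knock out. On the rescaled scale 15 of 78 members were higher and none lower, where 24.7% of all rows were higher and 41.3% lower (66% in either direction), so the share of members called higher, 19.2%, was below that of all rows. The member median was 0.12 and that of all rows -0.08. Rpl41 held 1675, 2392 and 8170 rescaled FPKM in wild type and 1412, 4046 and 8476 in MR knock out, which overlapped widely. Its log2 difference was 0.61 ± 0.19 (limma adjusted p = 0.00549). Rplp1 followed with 0.42 ± 0.14, Rpl13a, a component of the GAIT translational silencing complex, with 0.38 ± 0.15, and Rps12 with 0.36 ± 0.13. The paralog Rps27l also rose, by 0.33 ± 0.09 (limma adjusted p = 0.0014).

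These calls did not hold on other scales. As deposited 2 members were higher and 3 lower (all rows 8.03% and 40.8%). A fit holding the length score called none higher and 72 lower (all rows 18.2% and 19.6%), with a median of -0.27, and Rpl41 stood at -0.16. Leaving out wild type ZT8 replicate 3, the wild-type library of lowest length score, gave 27 calls, and leaving out MR knock out ZT0 replicate 3 gave 29. The share of all rows is not given for these 2 counts, so they do not show whether the members alone gained calls. The median length score was 0.0238 in MR knock out beside 0.182 in wild type. T cell markers were higher in MR knock out in 3 of 4 tested (median 0.55), and their part in the result was not tested.

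Relative to the member median 15 members were higher and 23 lower in MR knock out (all rows 12% and 36.9%). Rpl41 stood at 0.46 ± 0.10, Rplp1 at 0.27 ± 0.06, Rpl13a at 0.23 ± 0.07 and Rps12 at 0.21 ± 0.05. Below the median were Rps4l at -0.35 ± 0.14, Rps3 at -0.26 ± 0.07, Rpl34 at -0.25 ± 0.05 and Rpl10 at -0.23 ± 0.05. Both knock outs were compared with the same wild-type libraries, so their values stand side by side and are no independent repeats.

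In mice fed a low-salt diet, no member's mean level passed the test between day and night feeding. Of all rows 1.04% were higher and 2.29% lower, 3.33% in all (limma). At an unadjusted p under 0.05 there were 3 members, and with quantile normalization 1 was called. The median member difference was 0.07 rescaled and 0.08 as deposited, and single members ranged from -0.16 to 0.24. T cell markers, by contrast, were lower by day in 4 of 4 tested (median -0.57). On the relative scale Rpl31 (0.16 ± 0.04) and Rps23 (0.11 ± 0.03), at the decoding centre, were higher by day, and Rps15a (-0.21 ± 0.05) was lower (all rows 0.281% higher and 0.369% lower).

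In mice fed a high-salt diet, day feeding went with lower rescaled levels. Of 78 members 55 were lower than in night fed mice and 1 was higher, with 12.9% of all rows lower and 14.7% higher. The member median was -0.28 and that of all rows 0.02. Rps15 held 1661, 3016 and 7523 rescaled FPKM in night fed and 1117, 2376 and 4934 in day fed mice, a log2 difference of -0.62 ± 0.15 (limma adjusted p = 0.00204). Rpl41 differed by -0.56 ± 0.16, Rps24 by -0.52 ± 0.13 and Rpl36a by -0.50 ± 0.13. The groups overlapped in all 4. The exception was Rpl26, which can bind p53 mRNA, with 129 ± 23.7 rescaled FPKM in night fed and 149 ± 26.0 in day fed mice (SD, n = 18) and a log2 difference of 0.22 ± 0.08 (limma adjusted p = 0.0293).

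The sign depended on the scale here too. As deposited 39 members were higher by day and none lower, while 87.3% of all rows were higher, and the members lay below the median of all rows, at 0.17 against 0.41. All 5 night fed libraries of low scale factor stood at ZT8 and ZT12. Without them, with cosine and sine terms, 2 members were called lower (all rows 1.82%). Without all libraries of replicate number 3 none was, a count given without the share of all rows. T cell markers moved with this comparison: 4 of 4 tested were higher by day (median 0.91), and the 5 of the list in the tables, none mostly at 0, summed to 4.32 to 16.7 rescaled FPKM by day and 1.55 to 9.64 at night. Their part in the result was not tested. The rescaled median difference was -0.52 at ZT8, -0.55 at ZT16, where no high salt library was of low scale factor, and 0.32 at ZT20.

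On the relative scale 25 members were higher and 17 lower by day (all rows 43.8% and 1.42%). Rpl26 (0.52 ± 0.12), Rpl30 (0.39 ± 0.13), Rpl34 (0.31 ± 0.06) and Rps3 (0.27 ± 0.06) were the highest of those called. Rps15 (-0.31 ± 0.07), Rpl41 (-0.25 ± 0.08), Rps24 (-0.21 ± 0.05) and Rpl36a (-0.19 ± 0.05) were the lowest of those called. There were 8 calls without the low-scale libraries (all rows 13.4%).

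Does high salt change the level at a fixed feeding time? In night fed mice 44 of 78 members were higher on high salt and none lower, with 15.4% of all rows higher and 19.6% lower. The member median was 0.24 and that of all rows -0.02. Rpl41 held 2050, 3319 and 7504 rescaled FPKM on low salt and 2845, 5504 and 15759 on high salt. Its log2 difference was 0.66 ± 0.16 (limma adjusted p = 0.00172). Rps15 differed by 0.59 ± 0.15, Rps19 by 0.55 ± 0.15 and Rpl38, which is known for promoting translation of Hox mRNAs, by 0.51 ± 0.12. Each of these groups overlapped. As deposited no member was higher and 53 were lower (all rows 0.633% and 87.2%), with a median of -0.25 where all rows had -0.45. Without the 5 low-scale libraries and with cosine and sine terms 1 member was called higher (all rows 4.61%), and with those terms and all libraries 41. T cell markers were lower on high salt, 4 of 4 with a median of -1.23. Their sum had a median of 12.1 rescaled FPKM on low salt (7.08 to 18.6) and of 4.03 on high salt, and their part in the result was not tested. Without low salt night fed ZT0 replicate 3 or ZT12 replicate 3 the count of members called higher was 29 or 28. Both stand without the share of all rows, so they do not show whether the members alone lost calls.

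In day fed mice high salt went with a lower level of Rpl3, at the peptidyl transferase centre, by -0.22 ± 0.07 (limma adjusted p = 0.0241) and of Rplp0, by -0.20 ± 0.07 (limma adjusted p = 0.0419). Rpl3 held 681, 826 and 1020 rescaled FPKM on low salt and 453, 709 and 996 on high salt. No other member passed, while 7.05% of all rows were lower and 7.79% higher. As deposited 8 members were lower and none higher (all rows 6.87% and 2.35%). On the relative scale Rpl37a (0.16 ± 0.04) and Rps18 (0.15 ± 0.04) were higher on high salt and none was lower (all rows 4.44% higher and 1.14% lower).

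Whether the difference between feeding times depended on salt was tested itself. For the interaction of salt and feeding time 41 of 78 members were below 0 and none above it (all rows 8.75% below and 11% above, 19.7% in all), with a median of -0.36 for the members and 0.04 for all rows. Rpl41 (-0.79 ± 0.23), Rps15 (-0.68 ± 0.21), Rpl28 (-0.64 ± 0.20) and Rpl36a (-0.62 ± 0.18) were the lowest of those called. As deposited none was below 0 and 9 were above it, a smaller share than over all rows (0.721% below and 73.1% above). Without the low-scale libraries and with cosine and sine terms none passed (all rows 4.47%), and with those terms and all libraries 32 were below 0. T cell markers were above 0 in the interaction, 4 of 4 with a median of 1.46, and their part in the result was not tested. Leaving out low salt night fed ZT0 replicate 2 gave 62 calls, and leaving out any of 15 other libraries, from all 4 groups, gave 17 to 27. No share of all rows is given for these counts with a library left out, so they do not show whether the members alone moved.

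Relative to the member median, night fed mice on high salt had 22 members higher and 17 lower than on low salt (all rows 3.43% and 29.9%). Rpl41 stood at 0.40 ± 0.08, Rps15 at 0.34 ± 0.07, Rps19 at 0.30 ± 0.07 and Rpl38 at 0.26 ± 0.04. Rps3 stood at -0.26 ± 0.06, Rpl10 at -0.24 ± 0.06, Rplp0 at -0.18 ± 0.04 and Rpl23a at -0.16 ± 0.05. There were 2 relative calls without the low-scale libraries (all rows 6.89%).

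The salt comparison in night fed mice and the Bmal1 comparison share no library, and the order of the members was alike in both. Across 78 members the relative differences had a Pearson r of 0.82 and a Spearman rho of 0.83. Without Rps27, whose error is the largest, they were 0.91 and 0.88 across 77 members. Both comparisons hold libraries of low scale factor and negative length score. Over libraries of scale factor 0.6 or more, again without Rps27, r was 0.55 and rho 0.66. These came from plain means of the libraries left in each condition, without time terms, so the times covered differed between conditions. The scatter of relative differences shows Rpl41, Rps15 and Rps19 at one end and Rps3 and Rpl10 at the other.

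**Figure D4:**
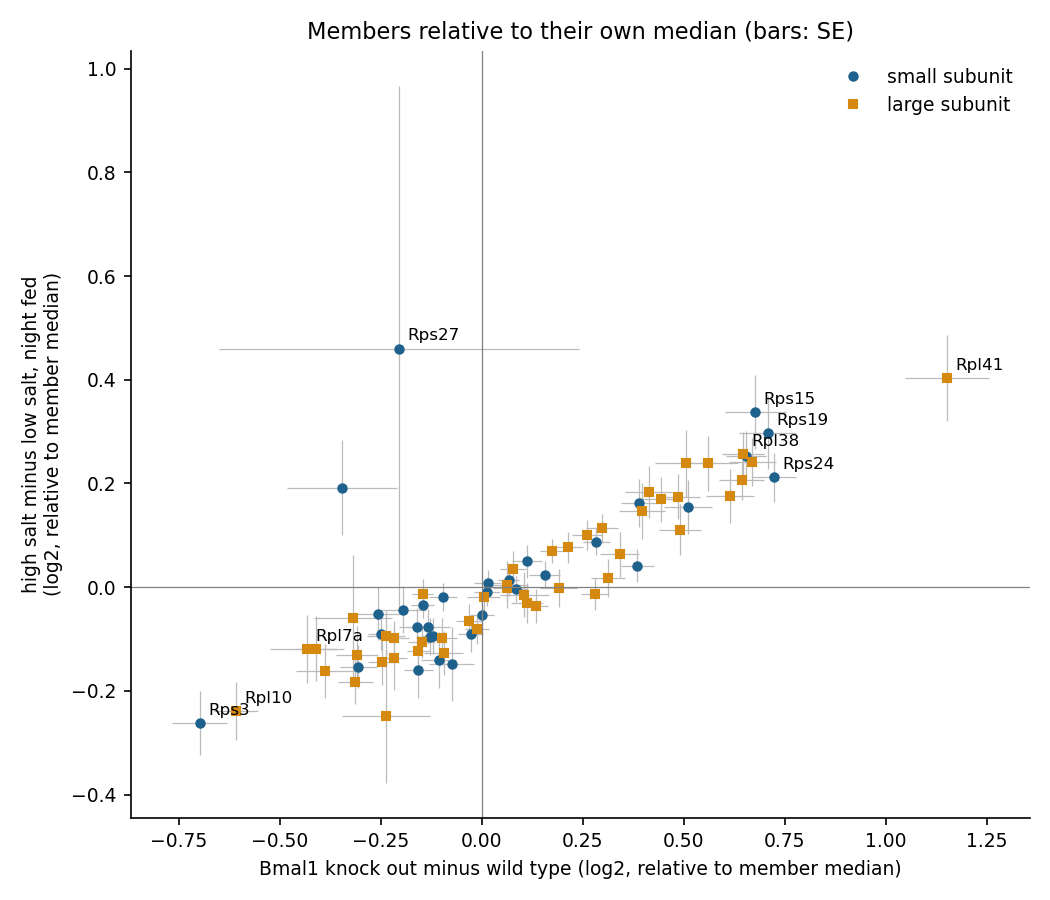
Difference of each member relative to the median of all members (log2), for Bmal1 knock out minus wild type (horizontal) and for high salt minus low salt in night fed mice (vertical). Blue circles are small-subunit and orange squares large-subunit genes, and bars are standard errors; Rpl41 lies at 1.15 and 0.40, Rps3 at -0.70 and -0.26, and Rps27 stands apart with a wide error.

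Daily variation was fitted as a 24 h cosine and sine over the 6 times (limma F test). In wild type 2 of 78 members passed, against 17.7% of all rows. Rpl3 had an amplitude (log2, mean to peak) of 0.33 ± 0.09 with a peak at ZT9.58 (limma adjusted p = 0.0297), and Rps15a an amplitude of 0.26 ± 0.07 with a peak at ZT10.6. Rpl3 held 438, 498 and 400 rescaled FPKM at ZT0 in wild type, 600, 662 and 1145 at ZT8, and 486, 451 and 417 at ZT20. The ZT8 libraries lay above those of ZT0 and ZT20, and 1 of them stood far above the others. A fit holding the length score called 45 members in wild type (all rows 37.5%), so this count turned on the setting. In MR knock out 11 members passed (all rows 21.7%), among them Rps9 (0.30 ± 0.08), Rps26 (0.31 ± 0.09) and Rpl7 (0.25 ± 0.07), with a mean peak at ZT9.42. The MR count was 47 in the fit holding the length score (all rows 32.5%), and 0 in a fit of MR knock out alone (all rows 6.67%) and as deposited (all rows 8.27%). No member's daily pattern differed between MR knock out and wild type (all rows 0.835%, limma), at an unadjusted p under 0.05 none, and none in any alternative run.

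In Bmal1 knock out 59 members passed (all rows 56.7%), with a mean peak at ZT17.3 and a median amplitude of 0.50 over those called. Rps15 had an amplitude of 1.01 ± 0.16, Rpl13a of 0.97 ± 0.15, Rpl24 of 0.88 ± 0.14 and Rpl17 of 0.66 ± 0.10. Rpl41 held 2441, 2465 and 3272 rescaled FPKM at ZT4 in the knock out and 15055, 13737 and 15388 at ZT16, without overlap. The daily pattern differed from wild type in 58 members (all rows 31.2%). The ZT16 libraries were all of low scale factor and the ZT4 libraries all at 1.26 or more, so time and scale factor cannot be told apart there. Without the low-scale libraries 14 members were rhythmic (all rows 6.63%) and the pattern of 2 differed from wild type (all rows 2.45%). Leaving out wild type ZT8 replicate 3 gave 31 differing members, and leaving out Bmal1 knock out ZT8 replicate 2 gave 30. Whether the calls over all rows fell likewise is not given for either count.

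**Figure D5:**
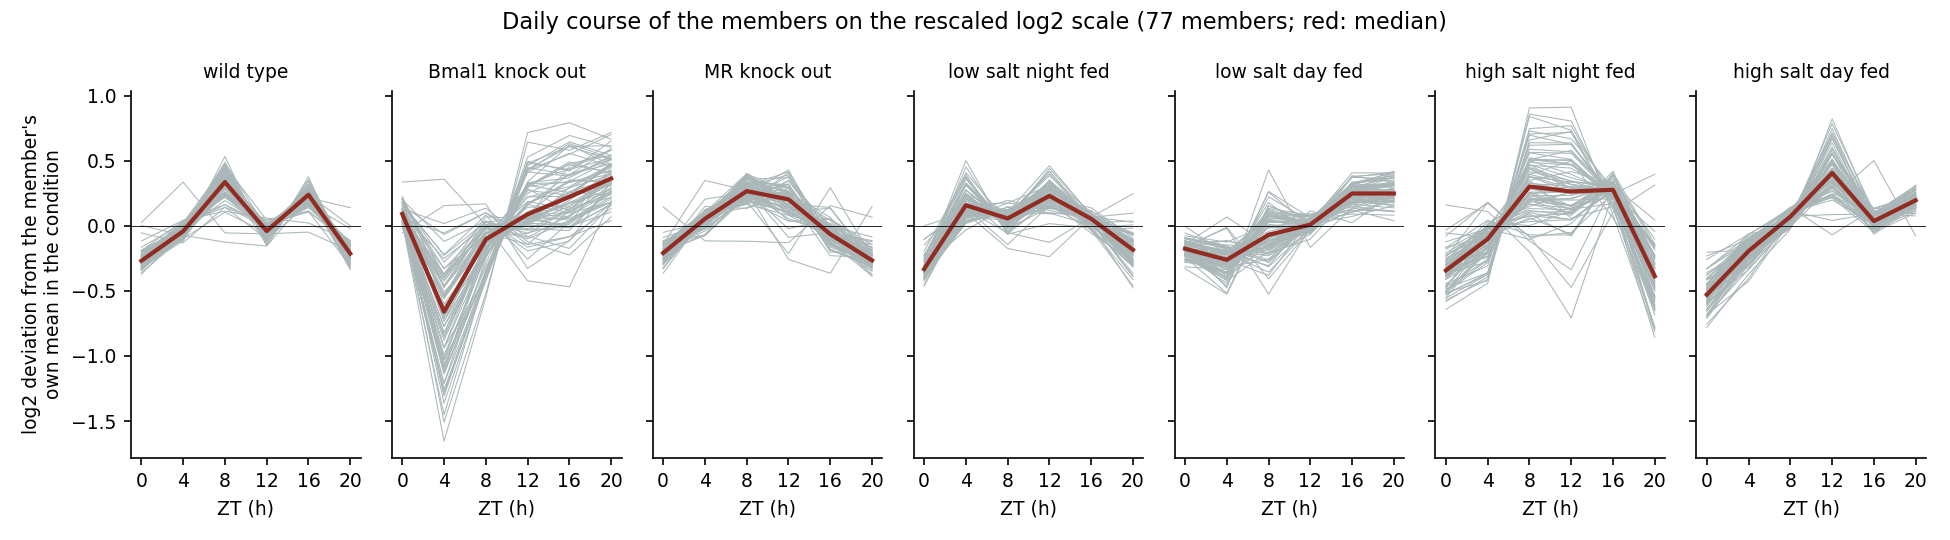
Daily course of 77 members (all but Rps27) in each condition, as log2 deviation of the mean of 3 rescaled values from the member's own mean in the condition, against zeitgeber time (hours). Grey lines are members and red lines their median; the Bmal1 knock out has its lowest point at ZT4 and high salt day fed its highest at ZT12.

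On low salt the fitted peaks lay later in day fed mice. In low salt night fed mice 13 members passed (all rows 22.6%), with a mean peak at ZT11.0, among them Rpl3 (amplitude 0.31 ± 0.07), Rpl4 (0.23 ± 0.06) and Rpl15 (0.19 ± 0.05). In low salt day fed mice 33 passed (all rows 42.2%), with a mean peak at ZT17.2, led by Rps27l (0.33 ± 0.06), Rpl7a (0.24 ± 0.05), Rps15a (0.30 ± 0.07) and Rpl23a (0.27 ± 0.06). The daily pattern differed between the 2 groups in 38 members (all rows 38.6%), with Rps27l first (0.38 ± 0.09, limma adjusted p = 0.00333). The share of members, 48.7%, was near that of all rows. Neither group held a library of low scale factor, and these counts rested on single libraries all the same. Without low salt night fed ZT0 replicate 2 the night fed count was 62, and without ZT12 replicate 2 of that group it was 1. The share of all rows is not given for either count, so they do not show whether the members alone moved.

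On high salt most members passed in both feeding groups. In night fed mice 70 passed (all rows 57%), with a mean peak at ZT11.2, led by Rpl3 (0.49 ± 0.07), Rpl13a (0.84 ± 0.14), Rpsa (0.76 ± 0.12) and Rpl36 (0.78 ± 0.13). Without the low-scale libraries, all at ZT8 and ZT12, 1 member passed (all rows 7.61%). In day fed mice 72 passed (all rows 31.6%), with a mean peak at ZT13.2, led by Rpl3 (0.34 ± 0.07), Rpl15 (0.23 ± 0.05), Rpl4 (0.25 ± 0.06) and Rps26 (0.36 ± 0.09). This group held no library of low scale factor. Rpl3 held 453, 628 and 487 rescaled FPKM at ZT0 in day fed mice and 981, 996 and 979 at ZT12, without overlap. A fit holding the length score called 11 members, and a fit of this group alone called 1. Without high salt day fed ZT0 replicate 1, ZT0 replicate 3, ZT4 replicate 1 or ZT16 replicate 1 the count was 19, 34, 38 or 25. No share of all rows stands beside these lower counts, so they do not show whether the members alone lost calls. Of the 78 members 1, Rpl30, differed in daily pattern between the feeding groups on high salt (0.51 ± 0.12, limma adjusted p = 0.00276), where 32.5% of all rows differed, and 9 had an unadjusted p under 0.05. Other settings called more: 61 as deposited (all rows 86.7%), 22 in a fit holding the length score (all rows 46.0%), 16 with quantile normalization (all rows 35.2%) and 9 with libraries set to an equal FPKM sum (all rows 31.0%).

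Other genes of the pathway were read from lists, whose counts stand beside 31.1% of all rows higher and 49.2% lower in the Bmal1 knock out. The lists were not split by transcript length. In that comparison the other tested genes of up to 600 nucleotides had a median of 0.44, as had those of 601 to 1000. Those over 4000 nucleotides had -0.47. Genes of mitochondrial ribosomal proteins, which build the separate ribosome of mitochondria, were mostly higher in the Bmal1 knock out too, with 69 of 76 higher and 4 lower and a median of 0.51, led by Mrpl37 (0.97 ± 0.09), Mrps15 (1.28 ± 0.12) and Mrpl13 (1.04 ± 0.10). In MR knock out 54 of the 76 were higher and 3 lower (all rows 24.7% and 41.3%), with a median of 0.24, or 0.065 as deposited. In high salt against low salt night fed mice 38 were higher and 1 lower (all rows 15.4% and 19.6%), with a median of 0.14 that turned to -0.35 as deposited.

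Of translation elongation factors and other TOP mRNAs 12 of 22 were higher and 3 lower in the Bmal1 knock out, with a median of 0.16. Naca, of the nascent chain complex, differed by 0.93 ± 0.11 and Eef1d by 1.13 ± 0.14, while Eef2, the translocase, differed by -0.42 ± 0.05. Of 47 ribosome biogenesis genes 22 were higher and 13 lower, with a median of 0.04, among them Nhp2 (1.32 ± 0.13), Mrto4 (0.78 ± 0.07) and Nop56 (0.77 ± 0.08). In night fed mice on high against low salt 27 of the 47 were higher and 1 lower (all rows 15.4% and 19.6%), with a median of 0.18 that turned to -0.30 as deposited, led by Nop56 (0.52 ± 0.08), Ncl (0.33 ± 0.06) and Wdr12 (0.29 ± 0.06).

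Of 20 regulators of these genes and links to p53, 9 were higher and 8 lower in the Bmal1 knock out, beside 80.3% of all rows called. Eif4ebp1, an mTOR target that holds back translation, differed by 0.90 ± 0.11 and Mtor itself by -0.86 ± 0.11, while Rpl36al, a paralog outside the symbol rule, differed by 1.06 ± 0.10. The part of transcript length in these differences was not tested. Of 7 hosts of small nucleolar RNAs, which are TOP transcripts themselves, 6 were higher, among them Snhg12 (0.76 ± 0.12) and Gas5 (0.35 ± 0.06). All of these are rescaled log2 differences with standard errors. As deposited the medians of the mitochondrial, TOP, biogenesis and snoRNA host lists were -0.37, -0.68, -0.76 and -0.55 in the Bmal1 knock out. The list of regulators and p53 links had -0.82. All rows had a median of -0.89 on that scale, below that of each list.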

How the data were processed

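Poly(A) RNA libraries were aligned with TopHat2 2.1.1 to mm10 and quantified with Cufflinks 2.2.1, per the submitters' processing notes. The deposited values are FPKM, 1 table per condition. The unit was read from Cufflinks and from values that are not whole. No source says whether the tables were normalized together, and level comparisons cross tables.

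Libraries were divided by a median-of-ratios factor over 6966 rows with at least 1 FPKM in all 126 libraries. log2(rescaled FPKM + 0.5) was tested for 11377 rows with a mean of at least 1 in some condition, so low genes' changes are understated. limma 3.58.1 in R 4.3.3 (trend, robust) was fitted to 54 genotype libraries (36 residual degrees of freedom) and 72 feeding libraries (48), with a mean per condition and time. Tests were 2-sided and adjusted by Benjamini-Hochberg at 0.05, and ± is the SE unless SD is named. Transcript lengths came from GENCODE vM21 and promoters from RefSeq. Rows of overlapping or near-identical genes are uncertain. Tests were checked on simulated data with independent noise per row and library, which does not cover shifts shared by many genes of a library.

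Replicates differed by a median absolute log2 of 0.0888 to 0.531, and none held identical values. Members and lists were chosen with earlier results of these data known. Named genes are up to 4 called rises and falls per comparison, up to 4 rhythms by adjusted p, the 4 highest and lowest members, and paralogs, stalk and p53-linked proteins. Alternatives covered scaling, filter, pseudocount, length score, time terms, replicate block, and left-out replicates and libraries. Some named genes are not reported here.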

Additional observations from a re-analysis of the deposited data

Results flagged for a closer look

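For 41 members the effect of feeding time on the rescaled level differed between the salt diets, by a test of the interaction. All 41 were more negative on high salt, as were 8.75% of all rows. The daily pattern differed between Bmal1 knock out and wild type in 58 members (all rows 31.2%). Between low salt day fed and low salt night fed it differed in 38 members (48.7%), near the share of all rows (38.6%). Between high salt day fed and high salt night fed it differed in 1 member (all rows 32.5%). Each was a test of the difference itself. Without the low-scale libraries no member passed for the interaction, and few differed in daily pattern between Bmal1 knock out and wild type, as given above. As deposited no member was below 0 in the interaction and 9 were above it (all rows 0.721% and 73.1%).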

How the results depend on the processing

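Counts below are of the 78 members called, in the direction reported, or in either direction for relative level and low salt. They moved by over 1.5 times, and the cause was not tested. A count with no share of all rows beside it, here or above, does not show whether the members alone gained or lost calls. The higher filter of 5 FPKM moved no count that far. With pseudocount 1, the members called for relative level numbered 1 for low salt day against night. With no filter on low values, the members called for level numbered 1 for high against low salt by day and 24 for the interaction. Relative calls numbered 0 for low salt day against night and 1 for high against low salt by day. Rhythm calls numbered 6 for MR knock out and 8 for low salt night fed. With FPKM as deposited, the members called for level numbered 11 for Bmal1 knock out against wild type, 2 for MR knock out against wild type, 0 for high salt day against night, 0 for high against low salt at night, 8 for high against low salt by day and 0 for the interaction. Daily rhythms numbered 0 for wild type, 0 for MR knock out, 73 for low salt day fed and 18 for high salt day fed. Daily differences numbered 61 for low salt day against night and 61 for high salt day against night. The member median turned to -0.30 for Bmal1 knock out against wild type, -0.054 for MR knock out against wild type, 0.17 for high salt day against night, -0.25 for high against low salt at night and 0.087 for the interaction. With quantile normalization, the members called for level numbered 35 for Bmal1 knock out against wild type, 0 for MR knock out against wild type, 1 for low salt day against night, 28 for high salt day against night, 25 for high against low salt at night, 6 for high against low salt by day and 17 for the interaction. Calls of rhythm numbered 2 for MR knock out, 13 for low salt day fed, 42 for high salt night fed and 32 for high salt day fed. Pattern differences numbered 24 for low salt day against night and 16 for high salt day against night. The member median turned to -0.13 for MR knock out against wild type. Of named members these turned sign: Rpl41 to -0.052 (MR knock out against wild type). With scaling to an equal FPKM sum, the members called for level numbered 45 for Bmal1 knock out against wild type, 1 for MR knock out against wild type, 1 for low salt day against night, 28 for high against low salt at night, 7 for high against low salt by day and 25 for the interaction. Rhythms here numbered 6 for MR knock out, 21 for low salt day fed and 43 for high salt night fed. Differing patterns numbered 9 for high salt day against night. The member median turned to -0.11 for MR knock out against wild type. With length score as a covariate, the members called for level numbered 14 for Bmal1 knock out against wild type, 0 for MR knock out against wild type, 7 for low salt day against night, 24 for high against low salt at night and 21 for high against low salt by day. Relative calls numbered 34 for Bmal1 knock out against wild type, 16 for MR knock out against wild type, 9 for low salt day against night, 24 for high salt day against night, 25 for high against low salt at night and 17 for high against low salt by day. Rhythm calls numbered 45 for wild type, 47 for MR knock out, 46 for low salt night fed, 18 for low salt day fed and 11 for high salt day fed. Daily differences numbered 22 for high salt day against night. The member median turned to -0.012 for Bmal1 knock out against wild type and -0.27 for MR knock out against wild type. Of named members these turned sign: Rpl13a to -0.22 (MR knock out against wild type), Rpl41 to -0.16 (MR knock out against wild type), Rplp1 to -0.15 (MR knock out against wild type), Rps12 to -0.18 (MR knock out against wild type) and Rpl7a to 0.069 (relative level, Bmal1 knock out against wild type). With cosine and sine terms, the members called for level numbered 1 for high against low salt by day. Relative calls numbered 0 for low salt day against night and 1 for high against low salt by day. Daily rhythms numbered 1 for wild type and 8 for low salt night fed. With low scale factor libraries left out, cosine and sine terms, the members called for level numbered 2 for high salt day against night, 1 for high against low salt at night, 1 for high against low salt by day and 0 for the interaction. Relative calls numbered 0 for low salt day against night, 8 for high salt day against night, 2 for high against low salt at night and 1 for high against low salt by day. Calls of rhythm numbered 1 for wild type, 14 for Bmal1 knock out, 7 for MR knock out, 7 for low salt night fed and 1 for high salt night fed. Differing patterns numbered 2 for Bmal1 knock out against wild type, 25 for low salt day against night and 0 for high salt day against night. With low scale factor libraries left out, cosine and sine terms and length score, the members called for level numbered 2 for Bmal1 knock out against wild type, 0 for MR knock out against wild type, 3 for low salt day against night, 12 for high salt day against night, 5 for high against low salt at night, 16 for high against low salt by day and 2 for the interaction. Relative calls numbered 6 for Bmal1 knock out against wild type, 16 for MR knock out against wild type, 5 for low salt day against night, 6 for high salt day against night, 1 for high against low salt at night and 13 for high against low salt by day. Rhythms here numbered 46 for wild type, 10 for Bmal1 knock out, 46 for MR knock out, 31 for low salt night fed, 2 for low salt day fed, 12 for high salt night fed and 1 for high salt day fed. Daily differences numbered 10 for Bmal1 knock out against wild type and 0 for high salt day against night. The member median turned to -0.27 for MR knock out against wild type. Of named members these turned sign: Rpl13a to -0.23 (MR knock out against wild type), Rpl41 to -0.17 (MR knock out against wild type), Rplp1 to -0.16 (MR knock out against wild type), Rps12 to -0.19 (MR knock out against wild type), Rpl7a to 0.18 (relative level, Bmal1 knock out against wild type) and Rpl41 to 0.045 (relative level, high salt day against night). With compared conditions alone, the members called for level numbered 1 for high against low salt by day. Relative calls numbered 1 for low salt day against night. Rhythm calls numbered 7 for wild type, 0 for MR knock out, 0 for low salt night fed, 65 for low salt day fed and 1 for high salt day fed. Pattern differences numbered 2 for high salt day against night.

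For level, leaving out a library or a replicate number gave counts of 70 to 75 for Bmal1 knock out against wild type, 0 to 29 for MR knock out against wild type, 0 to 2 for low salt day against night, 0 to 69 for high salt day against night, 1 to 63 for high against low salt at night, 0 to 7 for high against low salt by day and 0 to 73 for the interaction. For relative level, leaving out a library or a replicate number gave counts of 55 to 67 for Bmal1 knock out against wild type, 7 to 42 for MR knock out against wild type, 0 to 6 for low salt day against night, 1 to 49 for high salt day against night, 9 to 50 for high against low salt at night and 0 to 7 for high against low salt by day. For daily rhythm, leaving out a library or a replicate number gave counts of 0 to 8 for wild type, 20 to 70 for Bmal1 knock out, 0 to 33 for MR knock out, 0 to 62 for low salt night fed, 3 to 42 for low salt day fed, 43 to 72 for high salt night fed and 0 to 75 for high salt day fed. For difference in daily pattern, leaving out a library or a replicate number gave counts of 0 to 71 for Bmal1 knock out against wild type, 0 to 0 for MR knock out against wild type, 0 to 55 for low salt day against night and 0 to 15 for high salt day against night.

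Replicate numbers showed no pairing of the samples on average. The mean correlation of deviations was 0.0040 for same-numbered pairs of genotype libraries and -0.0025 for pairs of other numbers. For feeding libraries it was -0.0022 and 0.00077. Of same-numbered pairs 32.2% of genotype and 35.5% of feeding libraries had a correlation over 0.1, a share not taken for other pairs. With the replicate number as a block the high salt difference in daily pattern was called in 2 members, and no other count moved by over 1.5 times. FPKM hold no counts, and the precision of single values at this depth cannot be given. All low-scale libraries were of Bmal1 knock out or high salt night fed, so leaving them out thins those conditions. Leaving them out together with the length score was chosen after seeing the data. Where leaving out a replicate left 2 libraries per time, the spread was pooled over conditions.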
